A study of Rattus norvegicus with 325 samples.

Results

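The soleus and the tibialis anterior (TA) of old rats were compared by total RNA sequencing, to ask which differences between a slow and a fast leg muscle remained in old animals. The members were the 24 libraries, of 325 in the whole series, whose labels gave 1 of these 2 muscles and an age of 27 months, 12 of the soleus and 12 of the TA. The same muscles at 6 months, again 12 libraries each, served as the young reference, and all 169 soleus and TA libraries at 7 ages were used for the course by age. All animals were male Sprague Dawley rats that had received no treatment, and the groups differed only in muscle and age. The tissues of 1 age were collected on 1 day, so a change with age and a change of collection day cannot be told apart, whereas both muscles of an age shared that day. Each library of a group came from its own animal according to the study, but the labels do not say which soleus and which TA came from the same rat.

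The soleus is a postural calf muscle that works almost all day, and in rats most of its fibres are slow (type I). The TA lifts the foot in short bursts and is built mainly of fast fibres (types IIA, IIX and IIB). The 2 fibre kinds use separate genes for nearly every sarcomere protein, for the calcium pump and for calcium buffering, and the choice between them is held by the firing pattern of the motor nerve and by transcription factors laid down in development. A fibre that loses its nerve re-expresses fetal genes such as the gamma subunit of the acetylcholine receptor (Chrng).

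Total counts per library were between 21353396 and 37647866 in the old soleus, 21361000 and 41811324 in the old TA, 24420727 and 39235371 in the young soleus and 28128959 and 66121880 in the young TA. Levels are given as log2 CPM (counts per 1000000 counts, scaled by TMM), and differences as log2 values of soleus minus TA ± the standard error (SE), with limma-voom adjusted p-values. A gene was called at an adjusted p under 0.05 and a difference over 1.5-fold. Myh7 and Myh4, the slow and the fastest myosin heavy chain, separated the 2 muscles without overlap in all 48 libraries, as their labels state. Within each old muscle, the library with replicate number 9 stood nearest to the young libraries of that muscle on the second principal component, which held 22.4% of the variance, at -14.1 against a group median of 14.8 in the soleus and at 8.49 against 31.3 in the TA. Transcripts made in liver, such as albumin, had a mean over 3 log2 CPM in 3 libraries at 27 months and in 3 at 6 months, and the summed level of 17 such genes was at 10.98, 170 and 2464 CPM (lowest, median and highest library) in the young soleus against at most 0.539 CPM in the young TA, so it was higher in every young soleus library than in any young TA library. Results were computed with and without these 6 libraries and without replicate 9 of both old muscles.

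Across 11882 genes tested, 1966 (16.5%) were higher in the old soleus and 1806 (15.2%) were higher in the old TA. At 6 months these counts were 2801 (23.6%) and 2274 (19.1%). The libraries of the 2 old muscles did not overlap for 2275 genes (19.1%). Differences past 4-fold numbered 411 at 27 months and 792 at 6 months, and past 16-fold 62 and 166. With scaling to total counts, 3048 genes were higher in the old soleus and 1059 in the old TA, since that scaling moved the median of all genes by 0.23 toward the soleus at 27 months, 0.40 at 6 months and -0.17 in the change between the ages. Differences are therefore read relative to the median gene.

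Of the 5075 genes called at 6 months, 3054 (60.2%) were called in the same direction at 27 months, 1969 (38.8%) were not called, and 52 (1.02%) were called in the opposite direction. Another 666 genes were called only at 27 months, 407 of them higher in the TA, and 189 of the 666 also passed the test of the change itself. The share that was kept was 60.7% for genes higher in the young soleus and 59.5% for genes higher in the young TA. It was 41.4% for genes that differed by 1.5-fold to 2-fold at 6 months, 72.9% from 2-fold to 4-fold, 85.5% from 4-fold to 16-fold and 76.5% above 16-fold.

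The test of the change (the difference at 27 months minus the difference at 6 months) called 1749 genes. In 1071 (9.01% of genes tested) the difference moved toward the TA, and in 678 (5.71%) it moved toward the soleus. Of the 3054 kept genes, 2418 did not pass this test, 597 had a narrower difference in old rats and 39 had a wider one. The median of the difference at 27 months over that at 6 months was 0.668 among genes called at 6 months, and 85.5% of them were smaller, and selection on the young difference moves both figures that way. Among genes selected at 27 months instead, 63.1% were smaller than at 6 months. On the first principal component, which separated the muscles and held 61.1% of the variance, the median of the soleus was -36.0 at 6 months and -38.4 at 27 months, whereas that of the TA was 51.8 and 21.9.

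**Figure D1:**
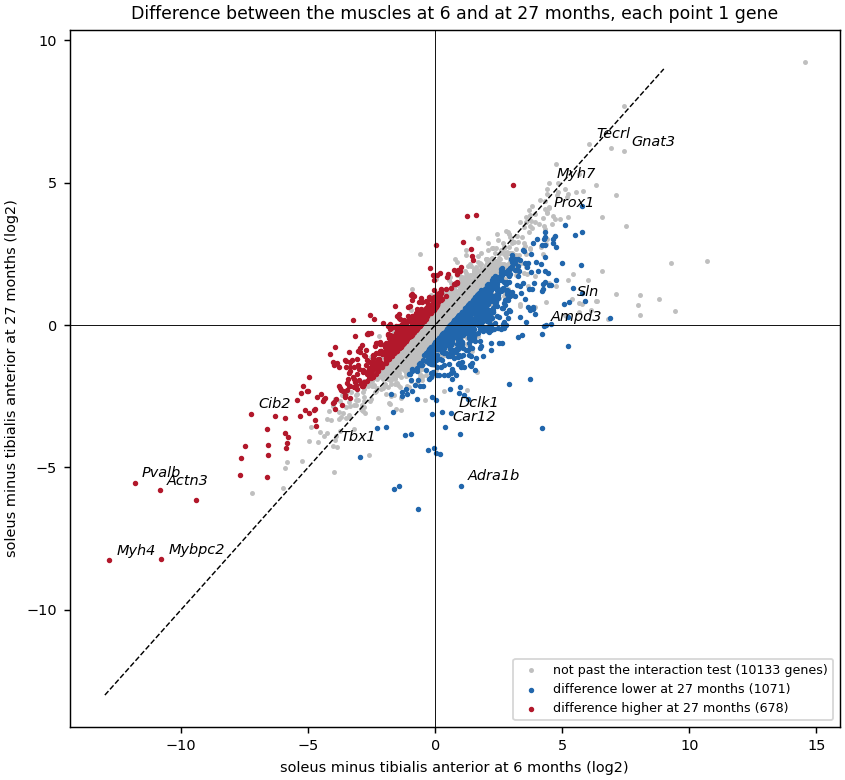
Difference between soleus and TA (log2) at 6 months on the horizontal axis and at 27 months on the vertical axis, 1 point per gene tested. Grey points did not pass the test of the change, blue points (1071) moved toward the TA, red points (678) moved toward the soleus, and the dashed line marks equal differences. The fast genes Myh4, Pvalb, Actn3 and Mybpc2 lie above the line at the lower left, Tbx1 and Myh7 lie near it, and Sln and Ampd3 lie near 0 on the vertical axis.

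The slow sarcomere kept its muscle pattern in old rats. Of 16 slow sarcomere genes tested, 13 were higher in the old soleus (16.5% of all genes tested) and 1, Myl6b, in the old TA (15.2%), against 14 (23.6%) and 1 (19.1%) at 6 months, and the median difference was 3.02 at 27 months and 3.11 at 6 months, beside medians of -0.0040 and 0.026 over all genes tested. For the change, 5 of the 16 moved toward the TA (9.01%) and none toward the soleus (5.71%). The old groups did not overlap in 10 of the 16 (19.1%).

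Myh7, the slow (beta) myosin heavy chain, was at 14.16, 14.94 and 15.81 log2 CPM (lowest, median and highest library) in the old soleus and at 7.57, 9.78 and 12.19 in the old TA. The groups did not overlap, and the difference was 4.99 ± 0.34 (adjusted p = 4.08e-18), or 31.7-fold. At 6 months the difference was 4.50 ± 0.35, and the change between the ages was 0.49 ± 0.49 (adjusted p = 0.454), which did not pass the test.

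The slow thin-filament genes behaved alike. Tnni1, the slow troponin I, was at 8.66, 9.17 and 9.54 in the old soleus and at 4.49, 5.11 and 6.57 in the old TA, with a difference of 3.75 ± 0.17 (adjusted p = 2.93e-24) against 4.26 ± 0.18 at 6 months. Slow troponin T (Tnnt1) differed by 4.35 ± 0.27 and 4.30 ± 0.27 at the 2 ages, slow/cardiac troponin C (Tnnc1) by 3.79 ± 0.22 and 3.58 ± 0.20, and slow tropomyosin (Tpm3) by 4.60 ± 0.26 and 4.42 ± 0.27. None of these 4 passed the test of the change, and in each the libraries of the old muscles did not overlap.

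The slow myosin light chains Myl2 and Myl3 differed by 3.11 ± 0.19 and 2.70 ± 0.13 in old rats and by 2.96 ± 0.19 and 2.39 ± 0.13 in young rats. Myh7b, a slow-type myosin gene, differed by 3.61 ± 0.15 and 3.94 ± 0.15. Myh6 (alpha myosin) was also higher in the old soleus, by 4.77 ± 0.85, but its sequence is close to that of its neighbour Myh7 and the reads of the pair may not be fully separated.

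The 5 slow-list genes whose difference shrank were Actn2, Csrp3, Ankrd2, Smpx and Fhl1, of which all but Fhl1 overlapped between the old muscles. Csrp3, a Z-disc LIM protein, differed by 2.44 ± 0.21 (adjusted p = 1.14e-14) at 6 months and by 0.69 ± 0.22 (adjusted p = 0.00453) at 27 months. The stretch-responsive ankyrin gene Ankrd2 went from 4.72 ± 0.33 to 3.12 ± 0.31 and Smpx, a small protein of the costamere, from 1.43 ± 0.064 to 0.15 ± 0.064. In Smpx the soleus moved by -0.28 ± 0.065 from 6 to 27 months and the TA by 1.01 ± 0.063.

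The fast sarcomere kept its direction but lost much of its distance. All 15 fast sarcomere genes tested were higher in the TA at both ages (15.2% of all genes tested at 27 months and 19.1% at 6 months). Their median difference was -4.33 at 27 months and -6.56 at 6 months. In 12 of the 15 (80.0%, beside 5.71% of all genes tested) the difference moved toward the soleus, and the 3 that did not pass that test were Myh2, Myom2 and Mybph. From 6 to 27 months, 11 of the 15 rose in the soleus (background 9.27%) and 1 fell (5.99%), and in the TA 1 rose (16.5%) and 7 fell (10.3%). The count of 15 was the same without replicate 9 of both old muscles, without the libraries with liver transcripts and with total-count scaling.

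Myh4, the IIB myosin heavy chain and the fastest in rats, was at 4.39, 6.65 and 8.34 in the old soleus and at 13.59, 14.86 and 16.12 in the old TA. At 6 months it was at 2.19, 3.11 and 5.82 in the soleus and 16.25, 16.45 and 16.63 in the TA. The muscles did not overlap at either age. The difference was -8.27 ± 0.44 (adjusted p = 4.11e-22) in old and -12.84 ± 0.48 in young rats, and its change of 4.57 ± 0.65 (adjusted p = 1.83e-07) was made up of a rise of 3.06 ± 0.36 in the soleus and a fall in the TA (-1.51 ± 0.55). The old TA library with replicate number 9 was the highest of its group at 16.12.

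Myh1, the IIX heavy chain, was at 5.75, 9.70 and 11.31 in the old soleus and 14.75, 15.37 and 15.66 in the old TA, a difference of -6.14 ± 0.55 (adjusted p = 6.2e-14). The young difference was -9.42 ± 0.53. Here the soleus rose by 3.20 ± 0.40 and the TA stood at -0.088 ± 0.65, which was within its error. Myh2, the IIA heavy chain, was lower in the old soleus, with a difference of -3.57 ± 0.85 (adjusted p = 0.000216) and a standard error too wide to place the change (1.31 ± 1.18, adjusted p = 0.402). In the young soleus Myh2 fell into 2 clusters of 6 libraries, 1 from 3.69 to 6.41 log2 CPM (replicates 0, 4, 5, 7, 8 and 10) and the other from 9.99 to 11.21. Reads of Myh1, Myh2 and Myh4, which lie side by side and are similar in sequence, may not be fully separated.

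Among the other fast genes, Actn3, an alpha-actinin of fast Z-discs, was at 3.90, 6.53 and 8.17 in the old soleus and 10.91, 12.26 and 13.61 in the old TA, against 0.72, 2.74 and 6.46 and 13.68, 13.83 and 13.99 in young rats. Its difference went from -10.83 ± 0.50 to -5.79 ± 0.40 (adjusted p = 5.83e-18), with a change of 5.04 ± 0.64 (adjusted p = 1.1e-08). Mybpc2, fast myosin-binding protein C, went from -10.78 ± 0.52 to -8.22 ± 0.39. The fast light chain Mylpf was at 7.14, 9.83 and 10.57 in the old soleus and 5.35, 6.85 and 8.03 in the young soleus, while the TA stood at medians of 12.96 and 13.05, so that the change of 3.10 ± 0.45 (adjusted p = 2.08e-07) was carried by the soleus. Fast troponins I (Tnni2), C (Tnnc2) and T (Tnnt3) changed by 2.42 ± 0.83, 2.99 ± 0.62 and 2.97 ± 0.89, Tpm1 by 2.01 ± 0.37 and Myl1 by 1.28 ± 0.13. Each of these 5 passed the test of a rise in the soleus.

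The same 2 sets of 6 young soleus libraries, low and high in Myh2, did not overlap in Tnni2, Tnnc2, Tnnt3, Tpm1 and Mylpf, 5 of the 11 fast genes that passed that test. Tnni2 was at -1.49 to 3.78 log2 CPM in the 6 young libraries low in Myh2, at 4.74 to 5.77 in the other 6 and at 1.96, 5.30 and 6.79 in the old soleus. The old soleus thus lay largely above the first 6 and around the other 6. Tnnt3 was at 1.97 to 5.52 and 6.88 to 8.06, against 5.20, 8.32 and 9.49 in the old soleus, and Tnnc2 at 1.12 to 3.60 and 4.94 to 5.84, against 3.31, 6.46 and 7.33. In Tpm1 the 2 sets reached from 5.33 to 6.49 and from 6.76 to 7.39, with an old median of 7.54. In Mylpf they nearly touched, from 5.35 to 6.79 and from 6.92 to 8.03, with an old median of 9.83. The rises given for these genes are averages over both sets, and the part of each set in the rises was not tested. The 2 sets overlapped in Myh4, Myh1, Actn3, Myl1 and Mybpc2.

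**Figure D2:**
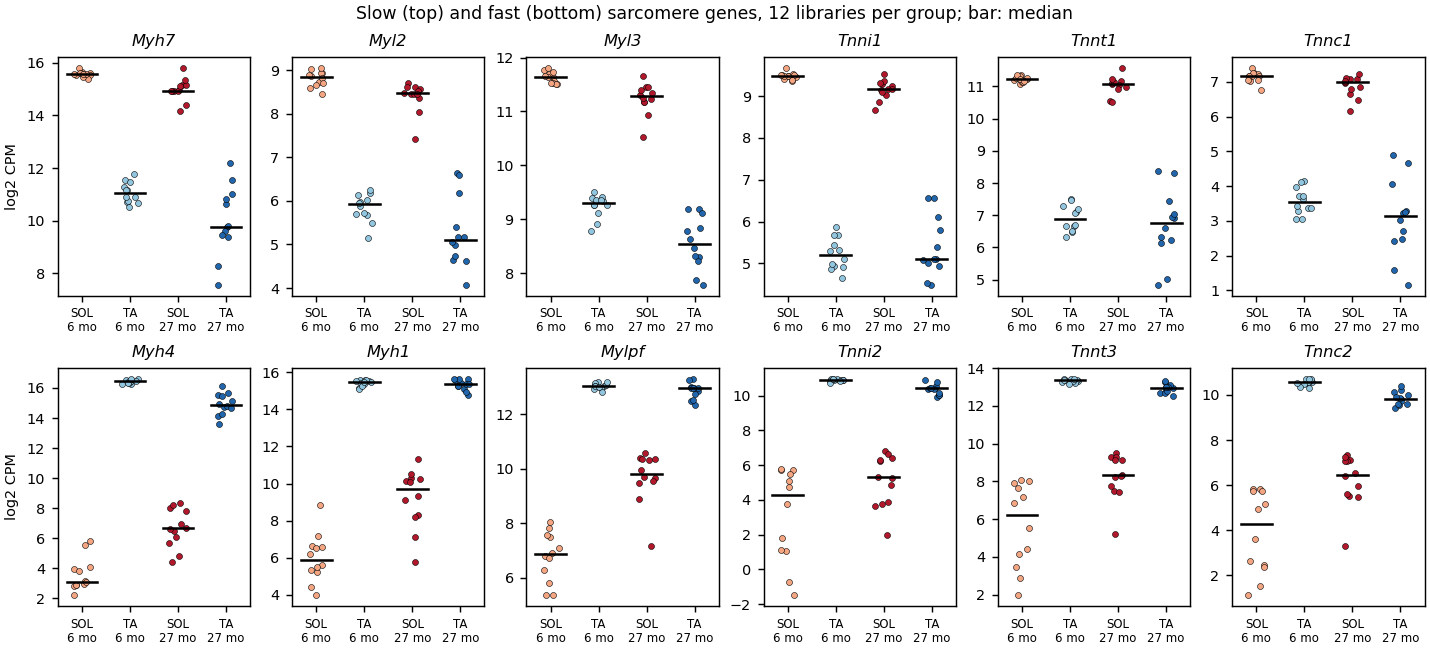
Levels (log2 CPM) of 6 slow sarcomere genes in the upper row and 6 fast genes in the lower row, 1 point per library, 12 libraries per group, with the median as a bar and a separate vertical scale per gene. The slow genes hold their gap between SOL (soleus) and TA at both ages, and in the fast genes the median of the 27-month soleus lies above that of the 6-month soleus and below that of the TA. The 6-month and 27-month soleus overlap in all 6 fast genes. In Tnni2, Tnnt3 and Tnnc2 the 6 young soleus libraries low in Myh2 lie below the other 6.

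The proximal promoters of the 2 troponin I genes are shown because this pair carries the contrast between a kept slow difference (3.75 ± 0.17 in old rats, 4.26 ± 0.18 in young) and a fast one that was narrower on average (-5.27 ± 0.53 and -7.69 ± 0.63). Sequences are those of RefSeq on the GRCr8 build, the 160 bases before the annotated start, 5′ to 3′ on the gene's strand. Tnni1 is at chr13:49781369-49781528 and Tnni2 at chr1:207024330-207024489, both on the + strand. Capitals mark exact matches on either strand of 3 motifs, CAGCTG (1 form of the E-box), the MCAT box CATTCC and the TATA box TATAAA. The motifs did not overlap in the sequences shown. Other forms of the E-box (CANNTG) were not marked, such as CAGGTG in Tnni1. The capitals in Tnni2 are a TATAAA on the opposite strand, 72 to 67 bases before the start.
Tnni1: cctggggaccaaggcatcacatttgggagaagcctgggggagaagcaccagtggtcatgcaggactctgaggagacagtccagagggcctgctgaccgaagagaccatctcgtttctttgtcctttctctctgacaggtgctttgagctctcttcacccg
Tnni2: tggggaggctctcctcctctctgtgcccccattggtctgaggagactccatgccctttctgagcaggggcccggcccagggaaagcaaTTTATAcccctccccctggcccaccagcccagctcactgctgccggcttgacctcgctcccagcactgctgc
Within 250 bases before the start, TATAAA was found in 13.1% of 27457 rat promoters and in 6.79% of the 9018 promoters of genes tested. It was found in 5 of 10 matched fast sarcomere promoters and in 4 of 12 slow ones. These are matches of letters only.

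Developmental sarcomere genes were still higher in the old soleus, but by less. Of 7 tested, 5 (71.4%, beside 16.5% of all genes tested) were higher in the old soleus and 1 (14.3%, beside 15.2%) in the old TA. The medians were 1.42 at 27 and 3.33 at 6 months. Embryonic myosin Myh3 was at 8.51, 10.89 and 11.58 in the old soleus and 6.97, 9.37 and 11.11 in the old TA, where the groups overlapped, and its difference was 1.43 ± 0.31 (adjusted p = 7.33e-05) against 2.78 ± 0.27 at 6 months. It rose in both muscles, by 2.44 ± 0.31 in the soleus and 3.79 ± 0.28 in the TA. Cardiac actin (Actc1) went from 3.33 ± 0.26 to 1.39 ± 0.25 and cardiac troponin T (Tnnt2) from 4.47 ± 0.59 to 1.42 ± 0.25, each with a larger rise in the TA. Perinatal myosin Myh8 was the member higher in the TA, with a difference of -2.33 ± 0.26 (adjusted p = 7.01e-11).

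Genes of calcium handling were found on both sides in old rats, with a share higher in the soleus near that of all genes tested. Of 21 tested, 4 (19.0%, beside 16.5% of all genes tested) were higher in the old soleus and 7 (33.3%, beside 15.2%) in the old TA, against 5 and 11 at 6 months, and 9 differences moved toward the soleus and 3 toward the TA. With total-count scaling the 9 became 4 and the 3 became 5.

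Pvalb encodes parvalbumin, the soluble calcium buffer that speeds relaxation of fast fibres. It was at 0.64, 5.03 and 6.11 in the old soleus and at 9.94, 10.27 and 10.63 in the old TA, and at -3.19, -1.24 and 1.77 and 10.28, 10.50 and 10.61 in the young muscles. The difference was -5.54 ± 0.31 (adjusted p = 3.23e-21) in old and -11.82 ± 1.02 in young rats. Its change, 6.29 ± 1.07 (adjusted p = 4.98e-06), was the most positive among genes that passed the test with a mean above 0 log2 CPM, and it lay in the soleus (6.09 ± 1.01), since the TA moved by -0.20 ± 0.33. Replicate 9 was the lowest old soleus library at 0.636, within the young soleus range.

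The calcium pumps of the sarcoplasmic reticulum kept their partition. Atp2a1, the fast pump SERCA1, was lower in the old soleus, with a difference of -3.95 ± 0.18 (adjusted p = 3.55e-24), and Atp2a2, the slow pump SERCA2, was higher by 3.40 ± 0.17 (adjusted p = 9.9e-23). The change was 1.84 ± 0.26 (adjusted p = 2.12e-07) for the fast pump and -0.43 ± 0.25 (adjusted p = 0.184) for the slow one. Fast calsequestrin (Casq1) narrowed from -1.89 ± 0.095 to -0.88 ± 0.094 and the slow/cardiac form (Casq2) from 4.34 ± 0.17 to 2.83 ± 0.17.

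Sarcolipin (Sln), a small peptide that slows the calcium pump and that in rat limb muscle belongs to the slow fibres, lost most of its difference. It was at 3.11, 3.52 and 4.11 in the young soleus and -4.22, -1.73 and 0.0021 in the young TA, which did not overlap. In old rats it was at 4.51, 5.81 and 6.15 in the soleus and 3.04, 5.02 and 5.77 in the TA, which did overlap. The difference went from 5.28 ± 0.73 to 0.83 ± 0.17 (adjusted p = 3.9e-05), the most negative change by the same rule (-4.45 ± 0.75, adjusted p = 4.55e-06), with a rise of 2.12 ± 0.19 in the soleus and 6.57 ± 0.73 in the TA.

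Of 41 regulators of fibre type tested, 7 (17.1%) were higher in the old soleus, a share near the 16.5% of all genes tested, and 12 (29.3%, beside 15.2%) were higher in the old TA. At 6 months these counts were 6 and 15. In 8 (19.5%, beside 5.71%) the difference moved toward the soleus and in none toward the TA, though total-count scaling made this 6 and 3 and turned the list's old median from -0.12 to 0.12. Prox1, a homeobox factor of slow fibres, was at 6.40, 6.66 and 7.42 in the old soleus and 2.29, 2.63 and 3.59 in the old TA, which did not overlap, with a difference of 3.95 ± 0.12 (adjusted p = 6.45e-32) against 4.40 ± 0.11 in young rats. Esrrb, an oestrogen-related receptor, differed by 2.14 ± 0.25 and 2.28 ± 0.23.

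Sox6, which represses slow genes in fast fibres, was at 3.81, 4.20 and 4.74 in the old soleus and 6.07, 6.36 and 6.86 in the old TA, which did not overlap. Its difference narrowed from -3.78 ± 0.086 to -2.14 ± 0.076 (adjusted p = 1.07e-28), with a rise of 1.02 ± 0.09 in the soleus and a fall in the TA (-0.62 ± 0.071). Myod1, the myogenic factor more abundant in fast muscle, narrowed from -3.19 ± 0.28 to -1.47 ± 0.25, and the immediate-early nuclear receptor Nr4a1 from -1.99 ± 0.31 to -0.76 ± 0.30. Myostatin (Mstn), the inhibitor of muscle growth, was at -1.78, -0.90 and 0.53 in the old soleus and 1.28, 1.89 and 3.52 in the old TA, again without overlap. Its difference was -2.81 ± 0.36 in old and -3.12 ± 0.21 in young rats, while its level fell with age in the soleus (-1.79 ± 0.38) and in the TA (-2.10 ± 0.17).

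Positional factors, the homeobox and T-box genes that record where a muscle lies in the limb, held nearly the same medians at both ages. Of 37 tested, 18 (48.6%, beside 16.5% of all genes tested) were higher in the old soleus and 5 (13.5%, beside 15.2%) in the old TA, against 17 and 7 in young rats, with medians of 0.44 and 0.43, and 3 (Hoxa11, Hoxc4 and Meox1) passed the test of the change. Tbx1 was at 3.59, 4.0 and 4.55 in the old soleus and at 7.81, 8.34 and 8.58 in the old TA, without overlap, a difference of -4.26 ± 0.088 (adjusted p = 1.25e-38) against -4.0 ± 0.086 at 6 months. Hoxd9 differed by 2.52 ± 0.20 and 2.37 ± 0.18, Hoxd10 by 3.49 ± 0.51 and 3.74 ± 0.46, and the hindlimb factor Pitx1 by 2.95 ± 0.42 and 3.04 ± 0.52, all toward the soleus. The difference of Hoxa11, higher in the TA, narrowed from -1.37 ± 0.11 to -0.68 ± 0.13, and that of Meox1, higher in the soleus, from 1.96 ± 0.26 to 0.61 ± 0.27.

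Glycolysis and glycogen genes remained a TA programme. Of 28 tested, 24 (85.7%, beside 15.2% of all genes tested) were higher in the old TA. Another 2 (7.14%, beside 16.5%), Ldhb and Gbe1, were higher in the old soleus. At 6 months these counts were 25 and 2, and the medians were -1.99 at 27 and -2.73 at 6 months. The difference moved toward the soleus in 17 (60.7%, beside 5.71%) and toward the TA in 3 (10.7%, beside 9.01%). The TA carried most of this change, since 24 of the 28 fell in the TA (background 10.3%) and none rose. In the soleus 8 fell (background 5.99%) and none rose. Lactate dehydrogenase A (Ldha) was at 7.27, 7.71 and 7.88 in the old soleus and 9.45, 10.46 and 11.20 in the old TA, which did not overlap, and its difference went from -4.03 ± 0.12 to -2.74 ± 0.12 (adjusted p = 1.48e-25). Pyruvate kinase (Pkm) went from -3.68 ± 0.14 to -2.82 ± 0.13 and Gpd1, of the glycerol phosphate shuttle, from -4.39 ± 0.21 to -2.59 ± 0.20. Phka1, a subunit of phosphorylase kinase, fell by nearly the same amount in both muscles (-0.98 ± 0.10 and -0.94 ± 0.12) and kept its difference of -2.94 ± 0.11 (adjusted p = 5.27e-28). Muscle fructose bisphosphatase (Fbp2) kept -5.01 ± 0.48 against -5.93 ± 0.53. The regulator of glycolytic flux Pfkfb3 narrowed most in this list, from -2.89 ± 0.26 to -0.68 ± 0.26.

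With TMM scaling, where mitochondrial genes differed, nearly all were higher in the TA at both ages. Of 74 respiratory chain genes tested, 32 (43.2%, beside 15.2% of all genes tested) were higher in the old TA. Only 1 (1.35%, beside 16.5%), Cox6a2, was higher in the old soleus. At 6 months these counts were 28 and 1. The medians were -0.54 at 27 and -0.49 at 6 months, and none passed the test of the change. With total-count scaling the 32 became 17, the old median was -0.30, the young median was -0.090 and 2 differences moved toward the TA. The complex I subunits Ndufb7, Ndufs8 and Ndufv1 differed by -1.46 ± 0.11, -1.38 ± 0.093 and -1.13 ± 0.09 in old rats, and Cox7a2 of complex IV by -1.16 ± 0.069. In the citric acid cycle 10 of 21 (47.6%, beside 15.2%) were higher in the old TA and none in the old soleus (6 and 1 with total-count scaling). Idh3a, a subunit of the NAD-dependent isocitrate dehydrogenase, led these at -1.78 ± 0.086 (adjusted p = 1.53e-23). The list's medians were -0.54 at 27 and -0.49 at 6 months, and -0.30 and -0.085 with total-count scaling. From 6 to 27 months 20 of the 74 respiratory chain genes fell in the soleus (5.99% of all genes tested) and 11 in the TA (10.3%), and none rose in either.

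Fatty acid and ketone genes, by contrast, lost most of their soleus excess. Of 35 tested, 15 were higher in the young soleus (23.6% of all genes tested) and 3 in the young TA (19.1%). In old rats these were 4 (11.4%, beside 16.5%) and 5 (14.3%, beside 15.2%), both below the shares of all genes tested. The difference moved toward the TA in 7 (20.0%, beside 9.01%) and toward the soleus in 2, the same share as that of all genes tested (5.71%). The old median was -0.089 and the young one 0.34, and the old median turned to 0.14 with total-count scaling, where 9 were higher in the old soleus, 3 were higher in the old TA and 18 differences moved toward the TA. The count higher in the old TA was 7 without replicate 9 of both old muscles and 8 without the libraries with liver transcripts. In the soleus 15 of the 35 fell from 6 to 27 months (5.99% of all genes tested) and 2 rose (9.27%). Bdh1, the ketone body enzyme beta-hydroxybutyrate dehydrogenase, was at 4.51, 4.98 and 5.23 in the young soleus and 0.40, 2.36 and 4.08 in the old soleus, against 0.69, 1.31 and 2.35 in the old TA, with overlap. Its difference went from 3.65 ± 0.28 to 0.63 ± 0.31 (adjusted p = 0.0685), which was not called. Lipoprotein lipase (Lpl) narrowed from 2.83 ± 0.12 to 1.24 ± 0.11, with a fall of the soleus (-1.37 ± 0.12). The lipid droplet coat Plin2 went from 1.52 ± 0.13 to -0.13 ± 0.13 (adjusted p = 0.36), with a rise of the TA (1.87 ± 0.13).

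Several of the largest old differences lay outside these lists. Tecrl, an endoplasmic reticulum protein also made in heart, was at 4.06, 5.83 and 6.43 in the old soleus and -3.27, -0.50 and 1.35 in the old TA, and its difference of 6.37 ± 0.48 (adjusted p = 2.26e-16) was the largest toward the soleus among genes with a mean above 0 log2 CPM. Gnat3, the taste transducin alpha subunit, was at 4.05, 4.83 and 5.72 and -2.17, -1.32 and 0.31, a difference of 6.10 ± 0.50, and neither gene overlapped. Rd3l (5.67 ± 0.65), the lysine methyltransferase gene Mettl21c (4.98 ± 0.33), the Ras exchange factor Rasgrf1 (4.68 ± 0.25), the potassium channel Kcnj13 (4.62 ± 0.47), the calcium channel Cacna1e (4.56 ± 0.82), Eps8l2 (4.50 ± 0.18) and Lgi1 (4.40 ± 0.55) completed the 12 with Myh7, Myh6 and Tpm3. None of the 12 passed the test of the change, although Cacna1e fell in the soleus (-2.30 ± 0.23, adjusted p = 1.55e-11) and stood at -2.55 ± 1.16 for the change.

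Toward the old TA the 12 were Myh4, Mybpc2, Myh1, Actn3, Pvalb, Tnni2 and Fbp2 with 5 genes of other kinds. The lactate exporter Slc16a3 was lower in the old soleus, with a difference of -4.80 ± 0.35 (young -5.83 ± 0.32), the surface glycoprotein gene Cd24 with -5.32 ± 0.24 (young -6.64 ± 0.27) and Mdga1 with -4.77 ± 0.25 (young -5.24 ± 0.33). Slc51a, a subunit of a steroid and bile acid carrier, was at -6.04, 0.20 and 1.65 in the old soleus and 3.84, 5.72 and 6.03 in the old TA. It had no count in 11 of 12 young soleus libraries and in 1 of 12 old ones, and it rose by 5.41 ± 0.44 in the TA.

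The fifth, Adra1b, encodes an alpha-1 adrenergic receptor and was not called in young rats (1.01 ± 1.02, adjusted p = 0.367). It was at -6.04, -1.49 and 0.15 in the old soleus and at 2.22, 4.08 and 4.82 in the old TA, which did not overlap, with a difference of -5.64 ± 0.54 (adjusted p = 5.51e-13). In young rats it was at -6.04, -1.84 and -0.057 and -6.04, -2.91 and -1.73, where -6.04 stands for no count, and the TA rose by 7.27 ± 0.82.

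Junction and denervation genes changed sides in their median. Of 32 tested, 11 were higher in the young soleus (23.6% of all genes tested) and 8 in the young TA (19.1%). In old rats 3 (9.38%, beside 16.5%), Colq, Sln and Nrg1, were higher in the soleus and 17 (53.1%, beside 15.2%) in the TA. The difference moved toward the TA in 11 (34.4%, beside 9.01%) and toward the soleus in 3 (9.38%, beside 5.71%). The median went from 0.14 to -0.63. From 6 to 27 months 22 of the 32 rose in the soleus (9.27% of all genes tested) and 21 in the TA (16.5%), and 2 fell in each. The median change was 1.39 in the soleus and 1.77 in the TA. Without replicate 9 of both old muscles 16 were higher in the old TA, without the libraries with liver transcripts 18, and with total-count scaling 13, with 5 higher in the old soleus.

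Chrng, the fetal gamma subunit of the acetylcholine receptor, was at -0.27, 1.44 and 1.98 in the young soleus and -6.04, -1.88 and -1.28 in the young TA. In old rats it was at 3.17, 4.98 and 6.17 and 2.79, 5.11 and 6.16, which overlapped. The difference went from 3.57 ± 1.21 (adjusted p = 0.00699) to 0.12 ± 0.25 (adjusted p = 0.66), with rises of 3.71 ± 0.42 in the soleus and 7.15 ± 1.16 in the TA. Replicate 9 was the lowest old library in both muscles, at 3.17 and 2.79.

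Ankrd1, a stress-responsive ankyrin repeat protein, was at 4.25, 7.58 and 8.18 and 8.45, 9.61 and 10.68, which did not overlap, and its difference widened from -0.91 ± 0.34 to -2.32 ± 0.32 (adjusted p = 8.07e-09).

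Colq, the collagen tail that anchors acetylcholinesterase, is made along whole slow fibres, and its difference was kept at 4.11 ± 0.25 (adjusted p = 6.87e-20) against 4.49 ± 0.23. Neuronal nitric oxide synthase (Nos1), a membrane enzyme of fast fibres, was likewise kept at -3.17 ± 0.13 against -3.40 ± 0.13.

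A further 6 members of the list are named after their values were seen. The receptor subunits Chrna1 and Chrnd were higher in the young soleus by 2.20 ± 0.25 and 2.63 ± 0.18 and lower in the old soleus, with differences of -0.61 ± 0.24 (adjusted p = 0.0198) and -0.64 ± 0.14 (adjusted p = 6.69e-05). The myogenic factor Myog, which drives receptor genes after denervation, turned from 1.89 ± 0.14 to -1.09 ± 0.11 (adjusted p = 6.8e-12), and the denervation-induced factor Runx1 from 0.93 ± 0.26 to -1.35 ± 0.21 (adjusted p = 1.1e-07). The receptor kinase Musk went from 0.36 ± 0.31 to -1.74 ± 0.17 (adjusted p = 8.16e-13) and the stress gene Gadd45a from 0.22 ± 0.27 to -1.46 ± 0.20 (adjusted p = 6.04e-09). In all 6 the TA rose more than the soleus, for example by 3.75 ± 0.14 against 0.77 ± 0.12 in Myog, and the old groups overlapped in each.

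**Figure D3:**
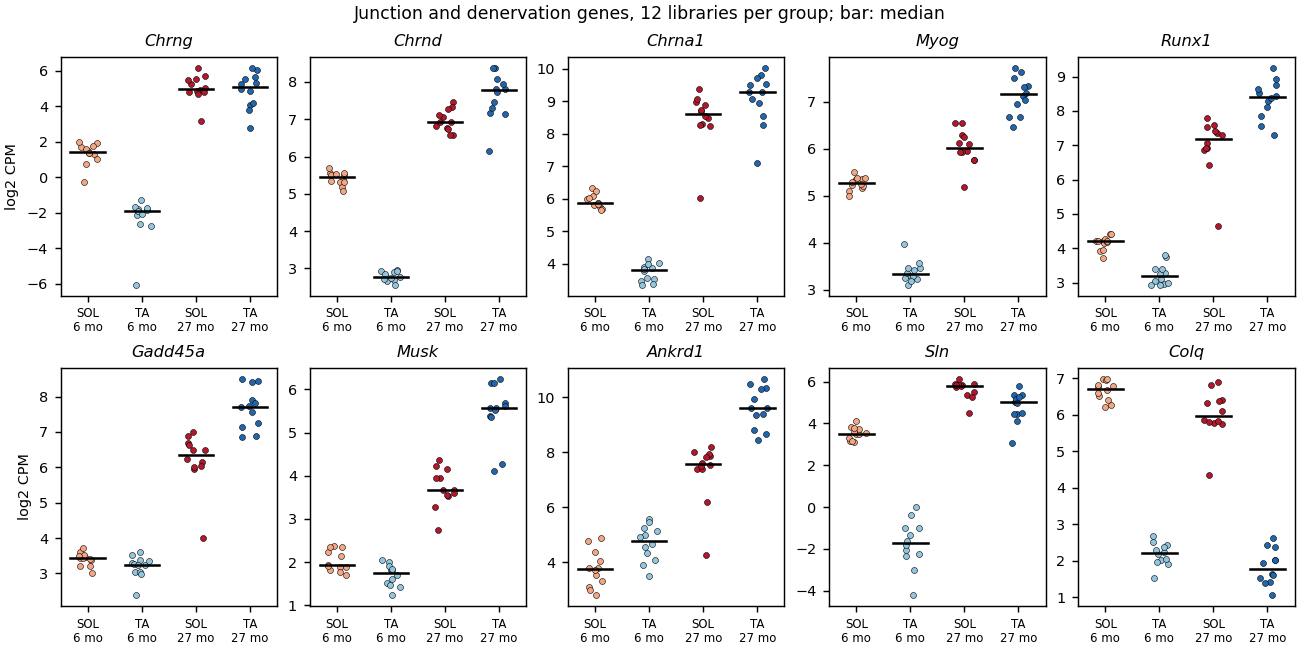
Levels (log2 CPM) of 10 junction and denervation genes, 1 point per library, 12 libraries per group, with the median as a bar and a separate vertical scale per gene. In Chrng to Musk the median of the soleus (SOL) lies at or above the TA at 6 months and at or below it at 27 months, Ankrd1 is higher in the TA at both ages, and Colq keeps its gap.

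The promoters of the 3 receptor subunit genes that lost or turned their difference are shown beside these values, since they moved together and since E-boxes bind myogenic factors such as the product of Myog. They are the 160 bases before the RefSeq start on GRCr8, 5′ to 3′ on the gene's strand, for Chrna1 at chr3:78877354-78877513 (- strand), Chrnd at chr9:95310156-95310315 (+ strand) and Chrng at chr9:95325824-95325983 (+ strand). Capitals mark matches of the same 3 motifs. CAGCTG lay at 75 to 70 and at 27 to 22 bases before the start in Chrna1 and at 26 to 21 in Chrng. CATTCC lay at 58 to 53 in Chrnd. Other forms of the E-box were again not marked, such as CACCTG in Chrnd and CAGGTG in Chrna1.
Chrna1: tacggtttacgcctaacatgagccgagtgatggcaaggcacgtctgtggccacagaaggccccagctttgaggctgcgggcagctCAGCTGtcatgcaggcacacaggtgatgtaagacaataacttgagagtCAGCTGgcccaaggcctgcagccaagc
Chrnd: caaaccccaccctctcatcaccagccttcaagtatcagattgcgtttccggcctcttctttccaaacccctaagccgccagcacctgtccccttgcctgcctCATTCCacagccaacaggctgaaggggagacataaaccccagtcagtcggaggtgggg
Chrng: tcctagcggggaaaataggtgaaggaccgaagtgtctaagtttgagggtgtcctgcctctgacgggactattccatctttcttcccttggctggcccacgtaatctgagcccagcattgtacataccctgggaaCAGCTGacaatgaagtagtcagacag
CAGCTG was present within 250 bases before the start of 11.9% of 27457 rat promoters, of 13.0% of the 9018 promoters of genes tested and of 8 of the 22 matched promoters of the junction and denervation list. A match is a description of the letters and not a site of binding.

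Outside the lists, genes whose difference moved toward the TA included some that passed the test of a rise in the TA and not in the soleus. Ampd3, an AMP deaminase first known from red cells, was at 8.05, 8.26 and 8.46 in the young soleus and 3.78, 4.02 and 4.28 in the young TA, and at 7.50, 8.21 and 8.85 and 7.69, 8.21 and 9.33 in old rats. Its difference of 4.27 ± 0.13 fell to -0.038 ± 0.12 (adjusted p = 0.79), and the TA rose by 4.29 ± 0.13 while the soleus stood at -0.019 ± 0.12. Epn3, an endocytic adaptor, went from 5.06 ± 0.50 to 0.72 ± 0.24 and the neurofilament gene Nefm from 5.75 ± 0.85 to 2.10 ± 0.26.

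Dclk1, a microtubule-linked kinase, was at 4.93, 5.97 and 6.83 in the old soleus and 7.16, 9.09 and 9.94 in the old TA, which did not overlap, whereas it was at 4.08, 4.43 and 4.67 and 3.26, 3.82 and 4.19 in young rats. The difference turned from 0.64 ± 0.23 (adjusted p = 0.0106) to -3.08 ± 0.20 (adjusted p = 1.25e-18). Blnk, an adaptor of B cell signalling, turned from 1.29 ± 0.53 to -2.59 ± 0.28. Carbonic anhydrase 12 (Car12) went from 0.38 ± 0.17 to -3.57 ± 0.28 (adjusted p = 6.23e-16), with a fall of the soleus (-2.94 ± 0.29) and a rise of the TA (1.01 ± 0.16). Complement C3, whose main source is the liver, changed by -3.57 ± 1.26 (adjusted p = 0.0215) over all libraries and by -3.30 without the 6 libraries with a liver mean over 3 log2 CPM. The young soleus libraries that remained still held more of the liver transcripts than any young TA library, so this value does not separate C3 from them.

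Among the genes that moved toward the soleus, those besides Pvalb, Actn3, Myh4 and Myh1 were Cib2, Chac1, Wnt4 and Ubxn10. Cib2, a calcium- and integrin-binding protein, was at -1.26, -0.71 and 0.49 in the old soleus and 1.77, 2.45 and 3.87 in the old TA, and its difference narrowed from -7.25 ± 0.45 to -3.11 ± 0.28. The glutathione-degrading enzyme Chac1 lost its difference, from -3.23 ± 0.34 (adjusted p = 7.44e-12) to 0.18 ± 0.35 (adjusted p = 0.655), with a fall of the TA (-2.53 ± 0.31). The ligand gene Wnt4 narrowed from -7.48 ± 0.58 to -4.25 ± 0.33 and Ubxn10 from -4.14 ± 0.41 to -1.03 ± 0.51 (adjusted p = 0.0682), which was not called.

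Genes that mark other cells of the tissue also differed between the old muscles, and in these bulk samples fewer cells of a type and less RNA per cell cannot be told apart. Of 16 macrophage markers tested, 13 (81.2%, beside 16.5% of all genes tested) were higher in the old soleus and none in the old TA, against 16 and none at 6 months. In 15 of the 16 (93.8%, beside 9.01%) the difference moved toward the TA. The summed level of the 18 listed lay between 504 and 698 CPM in the old soleus and between 180 and 396 CPM in the old TA, against 316 to 584 and 91.2 to 150 CPM in young rats. Cd68, a lysosomal protein of macrophages, was at 4.18, 4.39 and 4.84 in the old soleus and 2.73, 3.53 and 3.81 in the old TA, which did not overlap, and its difference went from 2.0 ± 0.14 to 1.07 ± 0.10 (adjusted p = 8.44e-13). The complement component C1qb went from 1.76 ± 0.15 to 0.70 ± 0.11 and the Fc receptor chain Fcer1g from 2.32 ± 0.16 to 1.44 ± 0.12. In the TA 15 of the 16 markers rose with age (16.5% of all genes tested), and in the soleus 4 (9.27%).

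Adipocyte markers were higher in the old soleus for 10 of 11 genes (90.9%, beside 16.5% of all genes tested). Their summed levels were 226 to 563 CPM in the old soleus and 75.1 to 118 CPM in the old TA. Adipoq, the fat cell hormone adiponectin, was at 6.41, 7.22 and 7.93 and 4.26, 4.52 and 4.90, without overlap, a difference of 2.66 ± 0.19 (adjusted p = 2.67e-17) against 3.18 ± 0.25 at 6 months. Leptin (Lep) differed by 2.73 ± 0.25 and 3.51 ± 0.49. The lipid droplet protein Cidea, higher in the old soleus by 1.53 ± 0.14, narrowed from 4.34 ± 0.36.

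Extracellular matrix genes were higher in the old soleus for 31 of 39 (79.5%, beside 16.5% of all genes tested) and in the old TA for none. The medians were 1.27 at 27 and 1.45 at 6 months, and 8 differences (20.5%, beside 9.01%) moved toward the TA. Without replicate 9 of both old muscles, or without the libraries with liver transcripts, the count was again 31, with 1 higher in the old TA. Thrombospondin 4 (Thbs4) was at 9.93, 10.52 and 10.96 and 6.90, 7.60 and 8.37, without overlap, a difference of 2.88 ± 0.17 (adjusted p = 1.63e-20) against 2.66 ± 0.16, the cartilage matrix gene Comp differed by 3.19 ± 0.28 and 2.91 ± 0.25, and periostin (Postn) by 2.53 ± 0.24 and 2.55 ± 0.24. The small proteoglycan biglycan (Bgn) narrowed from 1.88 ± 0.12 to 0.68 ± 0.12 and Cilp from 2.25 ± 0.18 to 1.03 ± 0.19. The list of spindle and tendon markers shares Thbs4, Tnmd, Fmod, Scx and Mkx with the matrix list. It also holds the myosin genes Myh7b and Myh6, given above with the slow sarcomere. Of the 9 markers tested, 8 (88.9%, beside 16.5%) were higher in the old soleus. Their summed levels were 1658 to 2506 CPM against 188 to 449 CPM in the old TA. The tendon genes Chad and Tnmd differed by 3.61 ± 0.26 and 3.13 ± 0.26. What part tendon, fat or spindle tissue had in other differences was not tested.

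Markers of satellite cells, vessels, nerve and blood completed the lists. Of 16 satellite cell markers 7 (43.8%, beside 16.5% of all genes tested) were higher in the old soleus. Only 1 (6.25%, beside 15.2%), Myod1, was higher in the old TA. Without replicate 9 of both old muscles the 7 became 4. Cdh15, M-cadherin, narrowed from -1.74 ± 0.098 to -0.38 ± 0.093 and was not called in old rats. With all 7 ages in 1 fit, Cd34 and Calcr differed toward the soleus at 27 months, by 0.93 ± 0.075 and 0.81 ± 0.20. Of 16 endothelial markers 1 (6.25%, beside 16.5%), Apln, was higher in the old soleus. Of 6 red cell markers 1 (16.7%, beside 15.2%), Hba2, was higher in the old TA and 5 were not called. Hba2 had no count in 6 of 12 old soleus libraries and in 1 of 12 old TA libraries. No red cell marker was called with edgeR's quasi-likelihood test. Smooth muscle markers gave 1 of 9 (11.1%, beside 15.2%) higher in the old TA, Cnn1, which turned from 0.60 ± 0.20 to -1.05 ± 0.19. Among 11 Schwann and nerve markers 2 (18.2%, beside 16.5%) were higher in the old soleus and 3 (27.3%, beside 15.2%) in the old TA. S100b, a calcium-binding protein of Schwann cells, was higher in the old soleus by 2.04 ± 0.16 (young 2.32 ± 0.20). Of 8 genes tested on the lymphocyte list 1 (12.5%, beside 16.5%), Cd4, was higher in the old soleus and 7 were not called. Which cells carried the Cd4 difference was not tested. Cd5 went from 3.71 ± 0.40 to 0.54 ± 0.27 (adjusted p = 0.0677). The count files held 15 of 17 listed lymphocyte, 8 of 12 red cell, 11 of 12 adipocyte and 9 of 10 spindle and tendon markers. Of the cell markers they held, 1 macrophage marker, Marco, had no count in any old TA library, and every other was counted in both old muscles.

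**Figure D4:**
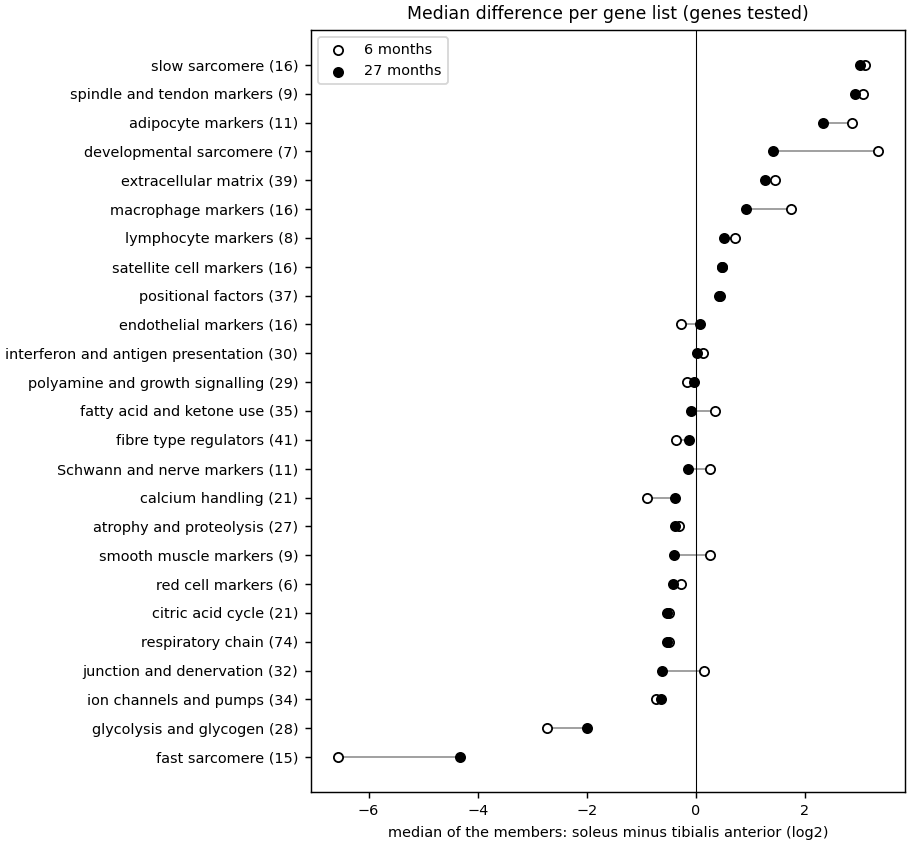
Median of the members' differences between soleus and TA (log2) for 25 gene lists, with the number of genes tested in parentheses, at 6 months (open) and 27 months (filled). With the TMM scaling shown, the slow sarcomere, positional, respiratory chain and citric acid cycle lists lie at nearly the same value at both ages. The fast sarcomere and glycolysis lists move toward 0, and the junction and denervation list crosses 0.

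Of 30 interferon and antigen presentation genes, 1 (3.33%, beside 16.5% of all genes tested) was higher in the old soleus. Another 3 (beside 15.2%) were higher in the old TA, so both old shares lay below those of all genes tested. At 6 months 8 were higher in the soleus, a share near the 23.6% of all genes tested, and 3 in the TA (beside 19.1%). The difference moved toward the TA in 7 (23.3%, beside 9.01%). B2m, the light chain of class I molecules, was at 9.40, 9.85 and 10.06 in the old soleus and 9.19, 10.11 and 10.81 in the old TA, with overlap, and its difference went from 1.41 ± 0.096 (adjusted p = 2.04e-18) to -0.29 ± 0.11 (adjusted p = 0.0126), with a rise of 2.38 ± 0.099 in the TA and 0.68 ± 0.10 in the soleus. The immunoproteasome subunits Psmb8 and Psmb9 were lower in the old soleus, with differences of -1.04 ± 0.15 and -1.41 ± 0.22.

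Of 27 atrophy and proteolysis genes 9 (33.3%, beside 15.2% of all genes tested) were higher in the old TA and 3 (11.1%, beside 16.5%) in the old soleus. The difference moved toward the TA in 4 (14.8%, beside 9.01%). The ubiquitin ligase Trim63 (MuRF1) was lower in the old soleus, with a difference of -1.22 ± 0.12 (adjusted p = 1.5e-12) against -1.04 ± 0.12 in young rats, and that of Fbxo31 was -2.05 ± 0.07 against -2.0 ± 0.071. The lysosomal protease Ctsl, a marker of autophagic breakdown, was at 5.77, 6.13 and 6.31 in the old soleus and 6.58, 7.39 and 7.89 in the old TA, which did not overlap, and its difference widened from -0.31 ± 0.092 to -1.22 ± 0.092 (adjusted p = 1.96e-16).

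Of 34 ion channels and pumps tested, 17 were higher in the old TA (beside 15.2% of all genes tested). Another 3 (8.82%, beside 16.5%) were higher in the old soleus. At 6 months these counts were 18 (beside 19.1%) and 5 (beside 23.6%). With total-count scaling the 17 became 10 and the 3 became 5. Aqp4, the water channel of fast fibres, was at 1.92, 3.43 and 6.48 and 4.02, 6.76 and 8.97, with overlap, a difference of -3.33 ± 0.37 (adjusted p = 4.04e-11) against -4.71 ± 0.36. Atp1b2, a sodium pump subunit, narrowed from -4.33 ± 0.12 to -2.56 ± 0.11 and the potassium channel Kcnc4 from -3.03 ± 0.16 to -0.91 ± 0.16. Car3, the carbonic anhydrase of slow fibres, was at 10.66, 11.06 and 11.44 in the old soleus and 9.18, 10.03 and 10.76 in the old TA, with overlap, and narrowed from 2.95 ± 0.12 to 1.01 ± 0.12 (adjusted p = 6.12e-10).

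In the polyamine and growth signalling list, 2 of 29 (6.90%, beside 16.5% of all genes tested) were higher in the old soleus and 7 (24.1%, beside 15.2%) in the old TA, against 6 and 11 at 6 months, and total-count scaling made the old counts 5 and 5. Sat1, the enzyme that starts polyamine breakdown, was at 3.40, 4.12 and 4.33 in the old soleus and 5.21, 5.76 and 6.49 in the old TA, which did not overlap, with a difference of -1.75 ± 0.097 (adjusted p = 1.83e-21) against 0.14 ± 0.12 (adjusted p = 0.314) at 6 months. Growth differentiation factor 11 (Gdf11) lost a difference of 2.11 ± 0.12, with 0.32 ± 0.10 (adjusted p = 0.00565) in old rats. Igf1 was higher in the soleus at both ages, by 1.16 ± 0.11 in old and 0.70 ± 0.10 in young rats.

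The differences were also followed over the 7 ages. With all 169 libraries in 1 fit of 12409 genes, 5341 genes were called between the muscles at 6 months, 5117 at 9, 5544 at 12, 4835 at 18, 4990 at 21, 4858 at 24 and 3923 at 27 months. The count was thus lowest at 27 months. The Myh7 difference was between 4.10 and 4.97 at every age and that of Tbx1 between -4.27 and -3.87.

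Among the fast genes, Myh4 stood at -12.85 at 6 months, -11.84 at 24 months and -8.27 at 27 months, and Mylpf at -6.29, -5.05 and -3.20. Pvalb went from -11.83 at 6 months to -9.38 at 21 months and Actn3 from -10.84 to -9.39. Sox6 went from -3.41 at 18 months to -2.84 at 24 and -2.15 at 27 months.

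In Sln, Chrng, Ampd3, Dclk1 and Car12 the difference lay farther from its 12-month value at each of the ages from 18 months on than at 6 or 9 months. The Sln difference was 5.74 at 12 months, 3.45 at 18, 2.59 at 21 and 1.04 at 24 months. Chrng went from 3.89 at 12 months to 0.99 at 18 and -0.32 at 24 months, and Ampd3 from 4.25 to 2.45 and 0.25. Dclk1 was at 0.81 at 12 months, -1.11 at 18 and -3.12 at 24 months, and Car12 at 0.080, -0.71 and -3.38. Other members of the junction list did not follow this course, with Colq between 4.10 and 4.92 and Nos1 between -3.40 and -2.97 at all 7 ages. The ages were collected on separate days, and the test of each step between neighbouring ages was not made.

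**Figure D5:**
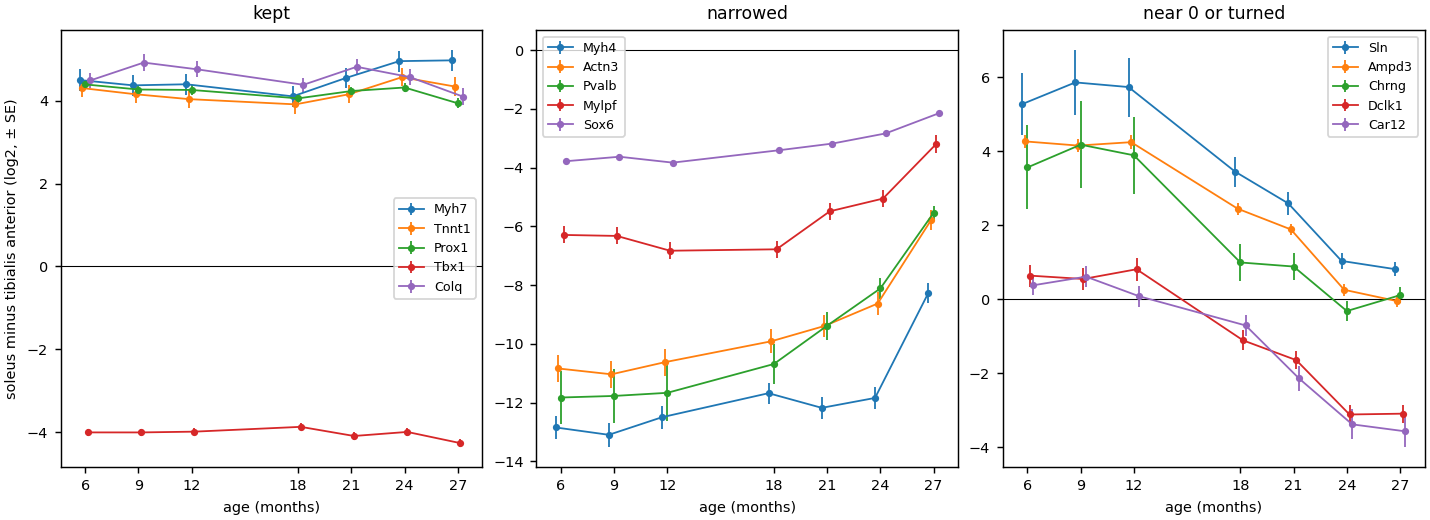
Difference between soleus and TA (log2, ± SE) at 7 ages, in months, for 15 genes from 1 fit of 169 libraries. On the left the differences stay near their 6-month value, in the middle those of fast genes shrink toward 0, with the largest step of Myh4 between 24 and 27 months, and on the right Sln, Ampd3 and Chrng approach 0 while Dclk1 and Car12 turn toward the TA.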

How the data were processed

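Total RNA was depleted of ribosomal RNA, made into strand-specific libraries and sequenced in paired ends. The deposited values are raw counts of reads per gene, made by the authors with the ArrayStudio RNA-seq pipeline on a rat genome reference that the study names B6.0, with an in-house gene model based on RefSeq; the version of the pipeline is not given in the sources used here. Each file had 17870 lines for 17315 symbols, and lines of 1 symbol were summed (494 symbols, of which 230 repeated identical counts).

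Groups came from the labels. Libraries of the other muscles were not analysed here. Genes were kept by filterByExpr (minimum count 10, minimum total count 15), scaled by TMM with edgeR 4.0.16 and tested with limma-voom (limma 3.58.1, R 4.3.3) in 1 fit of 4 groups and 48 libraries without a replicate block, with Benjamini-Hochberg adjustment over all genes. Contrasts were soleus minus TA at 27 and at 6 months, their difference, and 27 minus 6 months in each muscle. A call needed an adjusted p under 0.05 and over 1.5-fold. Log2 CPM used a prior count of 0.5. The procedure was tested on simulated data.

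Named genes were Myh7 and Myh4, the 12 largest differences of each direction at 27 months and the 8 largest changes of each sign among called genes with a mean above 0 log2 CPM, up to 4 genes by difference and 3 by change from each of 25 lists, and slow and fast partners in the main contractile families; any other gene was chosen after its values were seen. The members and lists were chosen with earlier results of these data known. Alternatives were total-count and RLE scaling, no filter, edgeR's quasi-likelihood test, DESeq2 1.42.0, Bonferroni adjustment, a threshold of 2-fold, all 7 ages in 1 fit, sample quality weights, a replicate block and each age alone. Leaving out replicate 9 of both old muscles, or the libraries with liver transcripts, was chosen after seeing the data. Promoter sequences came from RefSeq on GRCr8, a newer build than that of the counts, and were matched by symbol. Some listed genes are counted in their lists and are not reported here singly.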

Additional observations from a re-analysis of the deposited data

Results flagged for a closer look

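The difference between soleus and TA changed from 6 to 27 months, by the interaction test of limma-voom, in 1749 genes, and 52 genes were called higher in 1 muscle at 6 months and in the other at 27 months. Of these 52, 46 went from the soleus to the TA and 6 from the TA to the soleus, and 51 of them were also found without replicate 9 of both old muscles, 48 without the libraries with liver transcripts and 27 with total-count scaling.

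Among genes with a mean above 0 log2 CPM, the changes toward the TA that were singled out by the same test were those of Sln (-4.45), Epn3 (-4.34), Ampd3 (-4.31), Car12 (-3.95), Blnk (-3.88), Dclk1 (-3.72), Nefm (-3.66) and C3 (-3.57), given as log2 differences between the ages. The changes toward the soleus were those of Pvalb (6.29), Actn3 (5.04), Myh4 (4.57), Cib2 (4.14), Chac1 (3.41), Myh1 (3.29), Wnt4 (3.22) and Ubxn10 (3.11). Adjusted p-values were between 1.49e-24 and 0.0215. Groups of 12 libraries were not tested for single outlying libraries.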

How the results depend on the processing

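The count of genes called between the old muscles lay between 2962 (Bonferroni) and 4191 (no filter on low counts) over the alternatives at 1.5-fold, beside 3772, and was 1704 at 2-fold. At 6 months it was 2755 at 2-fold, and the test of the change called 737 genes at 2-fold and 744 with Bonferroni adjustment, beside 1749. Without replicate 9 of both old muscles the 3 counts were 3699, 5109 and 1883. Among the genes named by level rules and contractile families no value turned its sign under any alternative run, and 7 lost their call, all with Bonferroni adjustment: Myh2 and Myh3 for the old difference, and Nefm, C3, Myh1, Wnt4 and Ubxn10 for the change. Among all named genes of the lists, 2058 of 2147 values of the old difference kept their direction and side of the threshold, 40 lost the call, 28 gained it and 21 turned; for the change these were 1815, 51, 55 and 48 of 1969. The causes were not tested.

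With the replicate block (age and replicate number) 3810, 5143 and 1876 genes were called. Same-numbered libraries of the 2 muscles correlated over 0.1 in 2 of 12 pairs at 6 months and 9 of 12 at 27 months. The median correlations were 0.068 and 0.20. These values do not decide whether numbers were shared, and the labels tie no number to an animal. The fit without the block was kept for want of such labels, and its p-values treat the libraries of the 2 muscles as independent. At the 2 ages 6 and 7 of 12 soleus libraries correlated best with the TA library of their own number, a hint from the data that some numbers may be shared. For the named genes the block changed the call or the direction of 9 of 179 old differences (2 turned) and of 16 of 179 changes between the ages (4 turned).

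Collection day goes with age, libraries hold bulk tissue, reads of near-identical myosin genes may be split unevenly, and the fixed 1.5-fold threshold lets counts differ between ages when differences shrink only slightly. The median standard error was 0.086 at both ages and 0.122 for the change.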
